A study of Homo sapiens with 8 samples.

Results

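The CBAP knockout line and the CBAP knockdown line of Jurkat cells were compared gene by gene. Both lines lack CBAP to some extent, and they differ in how CBAP was removed. Jurkat is an established human T-cell acute lymphoblastic leukemia (T-ALL) line. The CBAP knockout cells were made with CRISPR/Cas9 and expressed GFP, and the CBAP knockdown cells carried a short hairpin RNA (shRNA) against CBAP (sh-CBAP). The other lines of the series are the CBAP-reconstituted cells and the sh-Ctrl cells, which carried a control shRNA. The CBAP-reconstituted cells are CBAP knockout cells given the CBAP gene as a fusion with GFP. Each of these 4 lines had 2 RNA-seq libraries, so the comparison used 4 of the 8 libraries. No further treatment is given in the labels. No source used here says whether libraries of a line came from separate cultures, so p-values measure only the spread between these libraries. The shRNA libraries also carry labels that are not explained and may or may not stand for clones. Whether the spread within the shRNA lines is of the same kind as within the CRISPR lines is therefore unknown.

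The members are genes with a mean FPKM (fragments per kilobase of transcript scaled to the number of mapped fragments) of at least 1 over the 4 libraries and a value above 0 in all 4. Of the 13453 genes in the deposited table, 11341 reached the mean and 10654 passed both conditions. The other 687 had a listed 0 in at least 1 library. Values were compared as log2(FPKM + 1), and a difference is the knockout mean minus the knockdown mean on that scale unless another is named. A gene was called at an adjusted p under 0.05 (limma, with p-values adjusted over all tested genes by the Benjamini-Hochberg method). An exact permutation test of 2 against 2 libraries cannot give a p below 0.333, so no such test was used. The sequencing depth behind FPKM values is unknown.

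The groups differ in more than the amount of CBAP. The CRISPR/Cas9 line and the shRNA line were made separately, and the method, the cells it left and GFP cannot be told apart from the amount of CBAP. The values of the CRISPR and shRNA sets also differ in how low they go, so the processing of the sets cannot be told apart from the lines either. Between 302 and 337 genes of each knockout library had an FPKM above 0 and under 0.1, against 29 to 37 genes of each knockdown library. Genes listed at 0 numbered 767 and 820 in the knockout libraries and 1182 and 1199 in the knockdown libraries. Whether the sets were processed together is not given in the sources used here. Libraries of the same line correlated across genes with r = 0.993 for knockout and 0.987 for knockdown, and libraries of different lines with r from 0.921 to 0.927. As a reference for what separates a CRISPR line from an shRNA line when CBAP is meant to be present, the CBAP-reconstituted libraries were compared with the sh-Ctrl libraries in the same way. These 2 comparisons share no library.

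CBAP, also called TMEM102, was described as a protein that binds the common beta chain of the receptors for GM-CSF, IL-3 and IL-5. In T-ALL cells, growth signals pass through the AKT, TSC and mTOR proteins and through the RAS and ERK proteins to the synthesis of lipids, amino acids and ribosomes. The transcription factors SREBP1 and SREBP2 switch on genes of sterol and fatty acid synthesis when sterols are low, and ATF4 switches on genes of amino acid supply when amino acids are low or proteins misfold.

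TMEM102, the targeted gene, was listed at 0 in both knockout libraries and had FPKM values of 2.69 and 2.89 in the knockdown libraries. It was also listed at 0 in both CBAP-reconstituted libraries and reached 4.07 and 4.74 with the control shRNA. The gene therefore separated the knockout from the knockdown libraries, but the zeros of the reconstituted libraries go against the label of those cells, and a listed 0 can be a failed estimate. Statements on reconstituted libraries rest on their label. The receptor genes CSF2RB, CSF2RA, IL3RA and IL5RA were not analysed here.

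Of the 10654 genes, 5021 (47.1%) were called. The knockout line had higher values of 3733 genes (35%) and lower values of 1288 (12.1%). Most differences were small. The lower and upper quartiles were -0.09 and 0.51, and 648 genes were higher and 336 lower by at least 1. The median of all tested genes was 0.21, a ratio of 1.16 on FPKM + 1, so the libraries as a whole were shifted towards the knockout line. After each library was centred on its median, 2154 genes (20.2%) were higher and 2680 (25.2%) lower, and after quantile normalization 2456 were higher and 2259 lower. The share of calls that were higher in knockout was thus 74.3% as deposited, 44.6% after centring and 52.1% after quantile normalization. Counts of gene lists are therefore given as deposited and after centring, to be read against these shares of all genes. The values of the knockout and knockdown libraries did not overlap for 79.6% of the tested genes, so that a lack of overlap is common. Without knockout replicate 1 the number of calls was 2996, and without knockout replicate 2 it was 2954.

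Many of the same genes also separated the lines with CBAP meant to be present. In reconstituted minus sh-Ctrl, 10291 genes were tested, of which 39.7% were higher and 12.8% lower in the reconstituted libraries, with a median of 0.17. After centring 2163 were higher and 1926 lower. Without reconstituted replicate 1 or replicate 2 these calls fell in number from 5405 to 1629 or 1504. Of 3580 genes called higher in knockout and tested in both, 1657 (46.3%) were also higher in reconstituted, 292 (8.16%) were lower and 1631 were not called. Of 1253 called lower, 428 (34.2%) were also lower, 318 (25.4%) were higher and 507 were not called. The difference between these differences was then tested in a model of all 8 libraries. It is (knockout minus knockdown) minus (reconstituted minus sh-Ctrl). It takes away the part of the CRISPR minus shRNA difference that recurs in both comparisons. It keeps what is particular to a single line, such as the reconstituted line. Among 10498 genes it was positive for 2264 (21.6%) and negative for 1739 (16.6%), and after centring it was positive for 1963 and negative for 2574. The number of these calls as deposited, 4003, was lower when a reconstituted or a knockout library was left out.

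**Figure D1:**
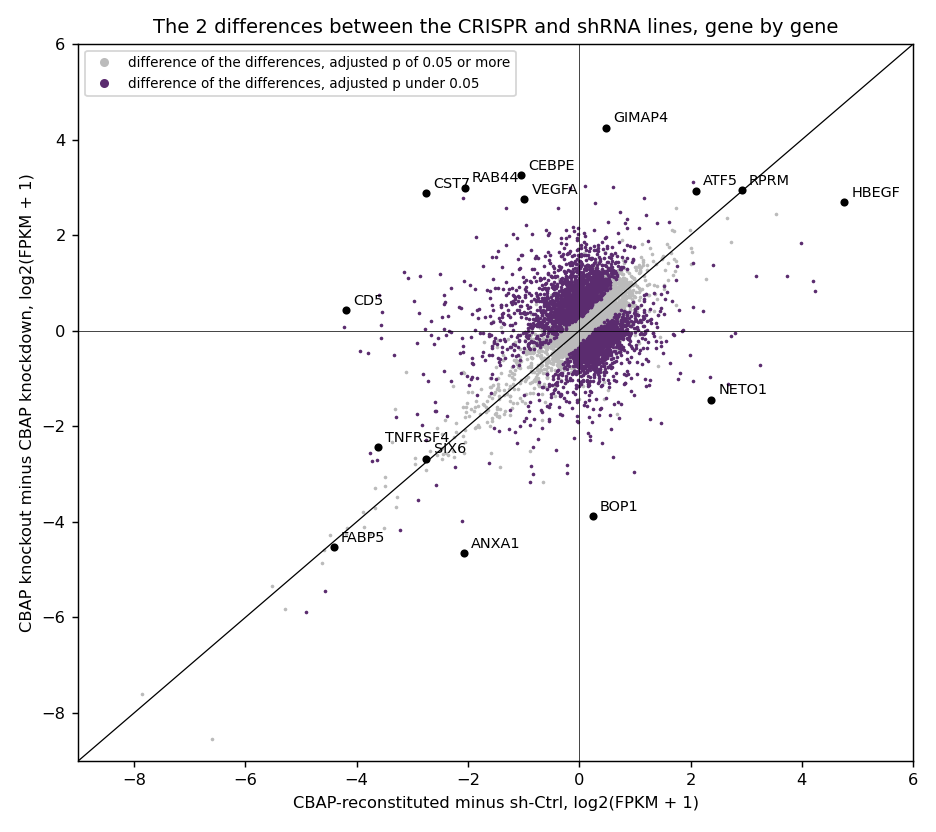
Each point is a gene, with its reconstituted minus sh-Ctrl difference on the x axis and its knockout minus knockdown difference on the y axis, both in log2(FPKM + 1), and dark points have a difference of the differences with an adjusted p under 0.05. Genes such as RPRM (2.94 and 2.92), SIX6 and FABP5 lie on the diagonal line of equal differences, while GIMAP4, CST7 and RAB44 lie above it and ANXA1 and BOP1 lie below it.

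Most of the genes furthest higher in knockout were low in all 3 other lines. GIMAP4, a GTPase of lymphocytes on chromosome 7 (hg19, 150264457 to 150271041), had FPKM values of 57.0 and 56.4 in knockout and 2.61 and 1.56 in knockdown libraries. Its difference was 4.24 (SE 0.180, adjusted p = 0.000828), a 27.2-fold higher mean FPKM, and it was between 0.989 and 2.65 in the reconstituted and sh-Ctrl libraries. The knockout libraries stood apart from all others for this gene. C1QTNF6, a secreted protein with a C1q domain, had values of 23.04 and 24.4 in knockout and 0.294 and 0.434 in knockdown libraries, a difference of 4.18 (SE 0.107, adjusted p = 0.000459). GAB2, a scaffold that links cytokine receptors to PI3K and SHP2, had 22.9 and 23.7 in knockout and 1.21 and 1.09 in knockdown libraries, a difference of 3.497 (SE 0.0952, adjusted p = 0.000503). In the reconstituted and sh-Ctrl libraries C1QTNF6 and GAB2 reached at most 1.36 and 0.982. CEBPE, a transcription factor of granulocyte maturation, had 114 and 113 in knockout and 13.7 and 8.83 in knockdown libraries. Its difference was 3.25 (SE 0.199, adjusted p = 0.00142), and its values in the reconstituted libraries, 2.29 and 2.28, were under those in sh-Ctrl, 6.63 and 5.001.

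Further genes of the 12 furthest higher followed. PLEK, the protein kinase C substrate pleckstrin of platelets and leukocytes, had 66.7 and 67.7 in knockout and 7.48 and 6.19 in knockdown libraries (difference 3.13, SE 0.107, adjusted p = 0.000503). FGFR3, a receptor tyrosine kinase for fibroblast growth factors, had 26.7 and 25.2 against 2.22 and 2.57, a difference of 2.99. RAB44, a large RAB GTPase of immune cells, had 34.0 and 33.3 against 2.55 and 4.36, also a difference of 2.99, and was at 0.0345 and 0.0654 in the reconstituted libraries. The knockout libraries were above all other 6 for each of these genes. SMAP1, which acts on the GTPase ARF6 in vesicle traffic, had 16.97 and 17.4 against 1.14 and 1.33, and was between 1.15 and 1.45 in the reconstituted and sh-Ctrl libraries. CST7, an inhibitor of cysteine proteases in cytotoxic cells, had 107 and 106 against 14.3 and 13.0 (difference 2.87), and was at 0.764 and 0.728 in the reconstituted libraries. CST7 was chosen for its difference of the differences, which at 5.62 was the highest among the genes tested. BMP10, FAM219B, LOC100130231 and LOC338799 complete the 12 genes furthest higher, with differences from 3.01 to 3.24, and for these 4 both reconstituted libraries were also above both sh-Ctrl libraries.

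Further genes, chosen after their values were seen among those whose sequence is not shared with other genes, had the same pattern or the pattern of the sets. VEGFA, the vascular growth factor, had 15.0 and 14.9 in knockout and 1.32 and 1.42 in knockdown libraries (difference 2.75, SE 0.0939, adjusted p = 0.000503), and 1.56 and 1.29 in the reconstituted libraries. CDKN1A, the cyclin-dependent kinase inhibitor p21, had 7.14 and 7.24 against 0.630 and 1.03 (difference 2.17, SE 0.140, adjusted p = 0.00148). The reconstituted libraries resembled the knockdown and not the knockout libraries for VEGFA and CDKN1A. In contrast, RPRM, a p53 target that arrests the cell cycle, had a difference of 2.94 between knockout and knockdown and 2.92 between reconstituted and sh-Ctrl. ATF5, a transcription factor of the stress response, had 70.8 and 77.1 in knockout, 73.3 and 69.7 in reconstituted, 9.29 and 8.41 in knockdown and 13.4 and 19.1 in sh-Ctrl libraries. HBEGF, a ligand of the EGF receptor, differed by 2.69 between knockout and knockdown and by 4.76 between reconstituted and sh-Ctrl. RPRM, ATF5 and HBEGF were thus high in both CRISPR lines and low in both shRNA lines.

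**Figure D2:**
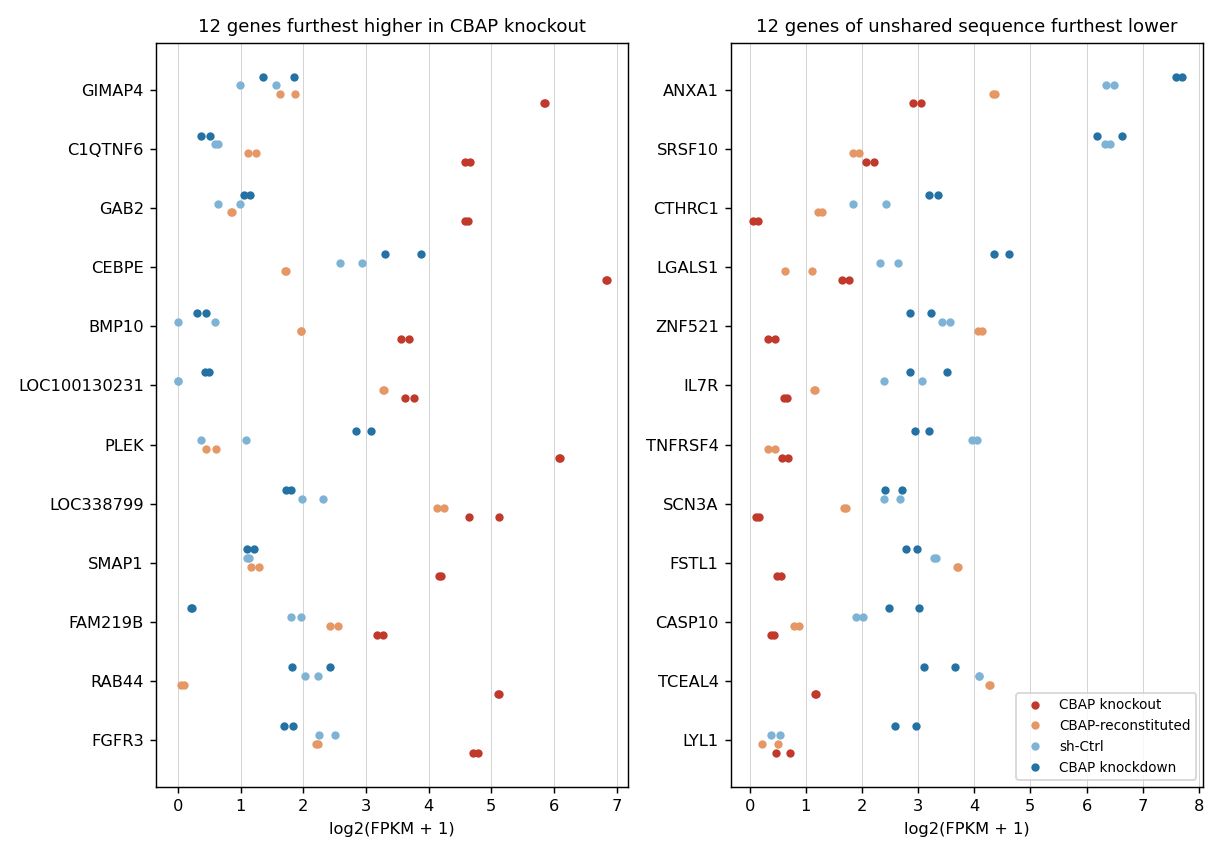
Points are single libraries in log2(FPKM + 1), colored by line, for the 12 genes furthest higher in knockout (left) and for 12 genes of unshared sequence furthest lower (right). For GIMAP4, C1QTNF6, GAB2, PLEK, SMAP1, RAB44 and FGFR3 only the knockout libraries stand at the right, and for ANXA1, CTHRC1, ZNF521 and SCN3A they stand left of the other 6.

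Many of the genes furthest lower in knockout were copies of other genes. Not all of the lowest are named here. Among the lowest by value were LOC100652902 (-7.59), RPL21P28, EIF3CL, H3F3A, GTF2IP1, ANXA1, POLR2J3, FABP5, BOLA2B, SRSF10 and RGPD1 (-4.25). Most of these values recurred between reconstituted and sh-Ctrl, where LOC100652902 differed by -7.86, EIF3CL by -5.28, FABP5 by -4.41 and POLR2J3 by -4.58. Reads of near-identical genes can be split among them in different ways, so the values of such genes are uncertain. Genes of which at least 20% of the 50-base stretches of the transcript also occur at another locus made up 336 of the 10654 tested genes (3.15%). They were 42 of the 3733 genes higher in knockout (1.13%) and 172 of the 1288 lower (13.4%). Among genes lower by at least 1 they were 108 of 336 (32.1%), and among those lower by at least 2 they were 42 of 91 (46.2%). Their median difference was -0.48 between knockout and knockdown and -0.49 between reconstituted and sh-Ctrl. Among 6091 genes with under 5% shared stretches and no overlapping gene, 2359 were higher and 649 lower in knockout.

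**Figure D3:**
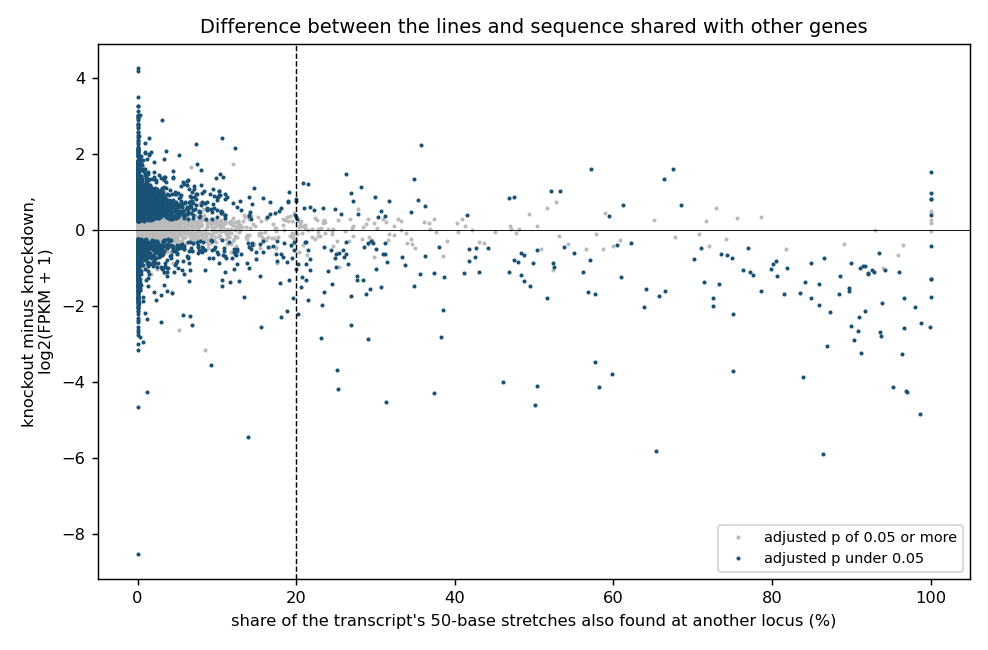
Each point is a tested gene, with the percent of its transcript's 50-base stretches that also occur at another locus on the x axis and its knockout minus knockdown difference in log2(FPKM + 1) on the y axis, and the dashed line marks 20%. To the right of the line most called genes lie below 0 (172 lower and 42 higher), and near 0% most lie above.

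ANXA1 was furthest lower among genes with under 5% shared stretches and no overlapping gene, called genes of unshared sequence here. ANXA1, on chromosome 9 (hg19, 75766781 to 75785309), encodes annexin A1, a membrane-binding protein that limits inflammation. It had FPKM values of 7.30 and 6.55 in knockout, 206 and 191 in knockdown, 19.7 and 19.1 in reconstituted and 80.8 and 89.3 in sh-Ctrl libraries. The difference was -4.65 (SE 0.0890, adjusted p = 0.000459), a 28.7-fold lower mean FPKM, and that between reconstituted and sh-Ctrl was -2.07. The 4 lines did not overlap, and knockdown was above sh-Ctrl while knockout was below reconstituted.

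The lower genes of unshared sequence that follow were chosen after their values were seen. IL7R, the receptor of the T cell growth factor IL-7, had 0.527 and 0.581 in knockout and 6.26 and 10.4 in knockdown libraries (difference -2.55, SE 0.232, adjusted p = 0.00294). TNFRSF4, the costimulatory receptor OX40, had a difference of -2.43 and one of -3.62 between reconstituted and sh-Ctrl. IL7R and TNFRSF4 were low in both CRISPR lines. ZNF521, a zinc finger protein of early blood cells, had 0.253 and 0.375 in knockout, 8.36 and 6.20 in knockdown, 15.8 and 16.5 in reconstituted and 10.9 and 9.73 in sh-Ctrl libraries. FSTL1, a secreted glycoprotein, had 0.464 and 0.406 in knockout, 6.85 and 5.91 in knockdown and 12.2 and 11.97 in reconstituted libraries. ZNF521 and FSTL1 were thus low in the knockout line and higher in the reconstituted line than in any shRNA library. LYL1, a basic helix-loop-helix factor of T-ALL, had 0.645 and 0.386 in knockout and 6.75 and 5.02 in knockdown libraries, and at most 0.454 in the other 4. LGALS1, the lectin galectin-1, had 2.40 and 2.13 in knockout and 23.6 and 19.4 in knockdown libraries against 3.99 and 5.26 in sh-Ctrl. For LYL1 and LGALS1 the knockdown line was the high one. CASP10, a caspase of death receptors (-2.34), DNMT3B, a DNA methyltransferase (-2.04), and CTHRC1, a secreted collagen-repeat protein (-3.17), were also lower in knockout.

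Genes of lipid and cholesterol synthesis were higher in knockout than in knockdown. Of 47 listed genes 44 were tested, of which 32 were higher, 1 was lower and 11 were not called, against 35% and 12.1% of all genes. After median centring 26 were higher and 6 lower. Their median difference was 0.65, which is 0.44 above that of all genes, while their median between reconstituted and sh-Ctrl was -0.13. The difference of the differences was positive for 30 of the 44 and negative for 0 at an adjusted p under 0.05. Of all genes tested for it, 21.6% were positive and 16.6% negative. The knockout libraries lay above all other 6 for 21 of the 44 genes (33.1% of all genes did), and the knockdown libraries lay below all other 6 for 25 (18.9% of all genes did).

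Genes of sterol synthesis led the list. HMGCS1, which starts the mevalonate pathway, had 91.2 and 90.6 in knockout, 24.8 and 35.5 in knockdown, 38.9 and 38.8 in reconstituted and 88.9 and 74.9 in sh-Ctrl libraries. Its difference was 1.58 (SE 0.174, adjusted p = 0.00418), against -1.05 between reconstituted and sh-Ctrl. The order of the lines in each set was thus opposite for HMGCS1, with the knockout near sh-Ctrl and the reconstituted near the knockdown libraries. CYP51A1, the lanosterol demethylase, had 10.6 and 13.0 in knockout and 1.90 and 2.79 in knockdown libraries (difference 1.94, SE 0.177, adjusted p = 0.00294). MVD, which makes isopentenyl diphosphate, had 57.4 and 63.3 against 18.9 and 16.98 (difference 1.70, SE 0.0954, adjusted p = 0.00127). Of HMGCS1, CYP51A1 and MVD, CYP51A1 was furthest apart.

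Regulators and fatty acid enzymes were mostly higher as well. SREBF1, which encodes SREBP1, had 70.6 and 69.8 in knockout and 25.1 and 25.4 in knockdown libraries (difference 1.44, SE 0.0693, adjusted p = 0.00108). SREBF2, which encodes SREBP2, had 79.1 and 76.0 against 43.6 and 45.8 (difference 0.78, SE 0.0733, adjusted p = 0.00304). INSIG1, which holds SREBP back when sterols are plentiful and is itself an SREBP target, differed by 1.498. The knockout libraries were the highest of all 8 for SREBF1, SREBF2 and INSIG1. SCD, the stearoyl-CoA desaturase, had 200.9 and 201.2 against 74.7 and 80.9 (difference 1.36), and FADS2, the delta-6 desaturase, differed by 1.49. FASN, the fatty acid synthase, had 26.8 and 25.01 against 28.6 and 36.6, a difference of -0.31 that was not called (adjusted p = 0.118), but it was called without knockdown replicate 1 (-0.49), after centring (-0.55) and after quantile normalization (-0.48). ELOVL6, which lengthens fatty acids, was the 1 gene called lower (-0.93, SE 0.194, adjusted p = 0.0188), and it was not called without knockdown replicate 2 (-0.79). ACACA, the acetyl-CoA carboxylase that starts fatty acid synthesis, was not called (-0.063, adjusted p = 0.670).

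**Figure D4:**
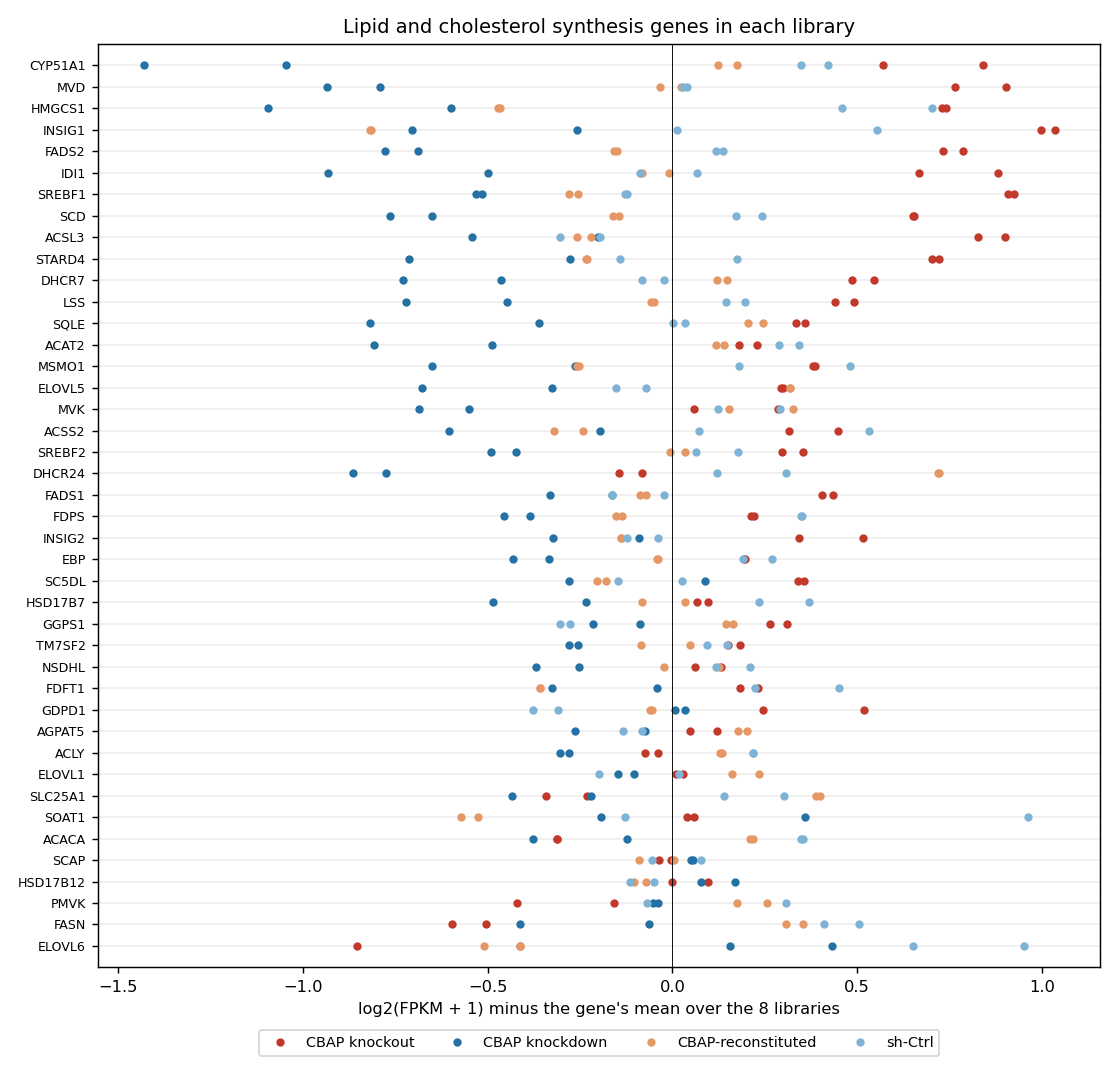
Points are single libraries, colored by line, as log2(FPKM + 1) minus the gene's mean over the 8 libraries, for 42 of the 44 tested genes of lipid and cholesterol synthesis ordered by their knockout minus knockdown difference. From CYP51A1 down to SREBF2 the knockdown libraries mostly lie at the left and the knockout libraries at the right, while FASN and ELOVL6 at the bottom have the knockout libraries at the left.

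Genes of the ATF4 and amino acid response were also higher in knockout. Of 37 listed genes 34 were tested, of which 20 were higher and 2 lower, and 17 were higher and 3 lower after centring. Their median difference was 0.48, 0.27 above that of all genes, and their median between reconstituted and sh-Ctrl was 0.03. The difference of the differences was positive for 19 and negative for 2, against 21.6% and 16.6% of all genes tested for it. The knockout libraries were above all other 6 for 20 of the 34 (33.1% of all genes were).

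The ATF4 list was read beside its promoters because its members tended to be high in the same libraries. The letters TGATGNAA, the core of sites known for ATF4 with a CEBP partner, were searched in RefSeq promoters (GRCh38.p14). The search covered both strands of the 250 bases before each start. They occurred in 1104 of 35116 promoters (3.14%) and at 6 of 48 promoters of the tested ATF4 list, which stand for 6 of 30 genes. The windows below are 30 bases long, are written in the direction of the gene, and have the match in capitals. The positions are chr1:212565205-212565234 (plus strand) for ATF3, chr7:97872458-97872487 (minus) for ASNS, chr15:40953251-40953280 (plus) for CHAC1, chr16:56931955-56931984 (plus) for HERPUD1, chr19:33374060-33374089 (plus) for CEBPG and chr19:46784893-46784922 (minus) for SLC1A5. A match is a description and not a bound site.
ATF3: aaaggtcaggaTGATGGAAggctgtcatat
ASNS: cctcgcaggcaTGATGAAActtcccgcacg
CHAC1: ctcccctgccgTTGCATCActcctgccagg
HERPUD1: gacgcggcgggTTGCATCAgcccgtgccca
CEBPG: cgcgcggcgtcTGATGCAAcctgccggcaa
SLC1A5: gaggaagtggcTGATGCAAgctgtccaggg

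Of these 6 genes, 4 were called higher in knockout, as were 20 of all 34 tested genes of the list (58.8%). Whether a match goes with the difference was not tested. ASNS, the asparagine synthetase, had 25.1 and 25.5 in knockout, 9.78 and 9.65 in knockdown, 5.28 and 4.44 in reconstituted and 15.1 and 8.42 in sh-Ctrl libraries, a difference of 1.30 (SE 0.0786, adjusted p = 0.00139). HERPUD1, a protein of endoplasmic reticulum degradation, had 63.2 and 63.2 in knockout and 19.7 and 21.5 in knockdown libraries (difference 1.57, SE 0.0794, adjusted p = 0.00114). CHAC1, which degrades glutathione, differed by 1.05 and CEBPG, a partner of ATF4, by 0.82. Knockout was the highest line for ASNS, HERPUD1, CHAC1 and CEBPG. ATF3, a stress-induced transcription factor, and SLC1A5, a glutamine transporter, were not called.

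The other members of the list include transporters, serine synthesis and the stress factors. ATF5 (2.93), VLDLR, a lipoprotein receptor (1.63), SLC7A11, the cystine transporter (1.38), PPP1R15A, which reverses the block on translation (1.44), TRIB3, a pseudokinase (0.94), and PSAT1, of serine synthesis (0.94), were called higher. DDIT3, the stress factor CHOP, had 9.77 and 11.1 in knockout and 4.99 and 5.69 in knockdown libraries (difference 0.85, SE 0.116, adjusted p = 0.00664), with 0.82 between reconstituted and sh-Ctrl. HSPA5, the endoplasmic reticulum chaperone BiP, was lower, with 72.0 and 75.03 against 102 and 114 (difference -0.55, SE 0.0884, adjusted p = 0.0101). The other gene called lower was SLC38A1, an amino acid transporter (-0.32), which was not called without knockout replicate 1 (-0.28) or replicate 2 (-0.36). In the lipid list the letters TCACNCCAC, a form of the sterol regulatory element, occurred at 1 of 46 promoters (34 genes), that of SREBF2 at chr22:41832962-41832991 (plus strand, GRCh38.p14), against 310 of all 35116 (0.883%). This window is shown because SREBF2 is itself a target of SREBP.
SREBF2: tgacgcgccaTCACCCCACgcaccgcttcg

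Of the lists of ribosomes, respiration and the proteasome, a larger share was lower in knockout than the 12.1% of all genes, although only for cytosolic ribosomal proteins were most members called. Of 72 tested cytosolic ribosomal protein genes (79 listed), 0 were higher and 44 were lower by limma, 0 and 58 after centring, and 4 were higher and 37 lower after quantile normalization. Their median difference was -0.46, 0.67 below that of all genes, while their median between reconstituted and sh-Ctrl was 0.14. Ribosomal protein genes have many copies, and for 19 of the 72 at least 20% of the sequence is shared. Among the other 53, 0 were higher and 27 lower, with a median of -0.41. Among the lowest were RPL21 (-4.13) and RPL7 (-3.99), each with much shared sequence. The knockout libraries were below all other 6 for 51 of the 72 genes, against 15.0% of all genes.

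Ribosomal protein genes with little shared sequence, chosen after their values were seen, had the same direction with smaller sizes. RPS21, of the small subunit, had 483 and 459 in knockout, 1075 and 884 in knockdown, 1074 and 1021 in reconstituted and 1037 and 995 in sh-Ctrl libraries. Its difference was -1.05 (SE 0.121, adjusted p = 0.00462), and between reconstituted and sh-Ctrl it was 0.04. RPL31, of the large subunit, had 370 and 341 against 629 and 603 (difference -0.79, SE 0.0844, adjusted p = 0.004). FAU, whose product includes the ribosomal protein eS30, had 381 and 390 against 654 and 636 (difference -0.74, SE 0.0757, adjusted p = 0.00365). For RPS21, RPL31 and FAU the knockout line was low and the other 3 lines lay close together. The shares of stretches that also occur at another locus were 0.31% (RPS21), 3.73% (RPL31) and 1.67% (FAU). RPL31 and FAU each overlap another gene, so only RPS21 counts as a gene of unshared sequence.

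The other lists of this kind had smaller medians. Of 68 tested genes of oxidative phosphorylation 3 were higher and 29 lower (median -0.25), of 67 mitochondrial ribosomal protein genes 5 were higher and 23 lower (median -0.20), and of 44 proteasome genes 2 were higher and 12 lower (median -0.15). Relative to all genes these medians were -0.46, -0.41 and -0.36, and after centring 47, 48 and 27 genes were lower and 3, 3 and 0 higher. Between reconstituted and sh-Ctrl their medians were 0.14, 0.31 and 0.36. The difference of the differences was negative for 38, 46 and 26 genes and positive for 3, 2 and 0. Of all genes tested for it, 16.6% were negative and 21.6% positive. COX6A1, a subunit of cytochrome c oxidase, had 55.5 and 54.9 in knockout and 121 and 104 in knockdown libraries (difference -1.01, SE 0.0986, adjusted p = 0.00335). MRPL21, of the large mitochondrial subunit, had 44.3 and 46.5 against 97.1 and 93.7 (difference -1.06, SE 0.0724, adjusted p = 0.00165). PSMB5, a catalytic subunit of the proteasome, had 67.7 and 64.9 against 119 and 108 (difference -0.77, SE 0.0821, adjusted p = 0.00404). In the other direction, ATP5A1, a subunit of ATP synthase, was higher (0.55), as were MRPL44 (1.34), which was also higher by 1.75 between reconstituted and sh-Ctrl, and MRPS10 (0.94), both of the mitochondrial ribosome. Of 24 glycolysis genes 4 were higher and 7 lower (median -0.10), 0.31 below that of all genes, and 4 were higher and 13 lower after centring. PGAM1, the phosphoglycerate mutase, was lowest (-1.63), with 79.3 and 77.6 in reconstituted against 287 and 325 in sh-Ctrl libraries as well. Of the stretches of its transcript, 56.8% also occur at another locus, so the values of PGAM1 are uncertain.

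Level and length moved with these lists. In the fifth of genes with the highest mean FPKM the median difference was 0.062, with 26.5% higher and 18.7% lower, against 0.27 in the fifth with the lowest. In the fifth with the shortest transcripts the median was 0.15 and in the fifth with the longest 0.29, among the 10111 genes (94.9%) with a known length. The part of level and length in the results of the lists was not tested.

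Regulators of proliferation and survival differed in both directions. Of 31 cell cycle regulators 16 were higher and 4 lower (median 0.46, 0.25 above that of all genes), and 13 were higher and 9 lower after centring. Inhibitors of cyclin-dependent kinases had the largest differences: CDKN1A (2.17), CDKN1C, which encodes p57 (1.51), and CDKN2C, which encodes p18, with 81.3 and 85.8 in knockout and 33.7 and 36.4 in knockdown libraries (difference 1.23, SE 0.0802, adjusted p = 0.00152). Members chosen after their values were seen are MKI67, TOP2A and CCND3. MKI67, the antigen Ki-67, had 56.1 and 54.0 against 21.8 and 26.5 (difference 1.16, SE 0.113, adjusted p = 0.00332), and TOP2A, the topoisomerase of mitosis, had 133 and 137 against 61.5 and 70.7 (difference 1.02). CCND3, a D-type cyclin, was higher (0.86). Other drivers of division were lower: CDC20, an activator of the anaphase-promoting complex (-0.74), CDK4, a kinase of the G1 phase (-0.44), and CDC25A, a phosphatase that activates these kinases (-0.33). CDK4 and CDC25A were not called without knockout replicate 1 (-0.49 and -0.32) or replicate 2 (-0.40 and -0.34).

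Of 45 DNA replication genes 14 were higher and 2 lower, with a median of 0.21 that equals the median of all genes, and 3 were higher and 13 lower after centring. Of 26 p53 target genes 13 were higher and 3 lower (median 0.30, 0.084 above that of all genes), and 9 were higher and 6 lower after centring. PMAIP1, the BH3 protein NOXA, had 60.7 and 68.9 against 25.3 and 32.8 (difference 1.14, SE 0.147, adjusted p = 0.00595). Of 15 genes of the BCL2 family 4 were higher and 2 lower (median -0.05, 0.26 below that of all genes), but 3 were higher and 7 lower after centring. BCL2, which protects cells from apoptosis, had 15.0 and 12.5 against 7.67 and 8.08 (difference 0.73, SE 0.119, adjusted p = 0.0103), but it was not called without knockout replicate 1 (0.60).

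Of 24 transcription factors of T-ALL 14 were higher and 2 lower (median 0.49, 0.28 above that of all genes), and 9 were higher and 5 lower after centring. RUNX1, a core factor of blood and T cells, had 196 and 205 in knockout and 84.9 and 86.2 in knockdown libraries (difference 1.22, SE 0.0702, adjusted p = 0.00127). LMO1, an oncogenic partner of TAL1, had 14.2 and 14.0 against 4.19 and 5.06 (difference 1.43, SE 0.113, adjusted p = 0.0022), with 1.15 between reconstituted and sh-Ctrl. TAL1 itself had 61.3 and 57.7 against 66.3 and 62.1 (-0.11) and was not called, although it was lower after centring (-0.35). Of 24 genes of the NOTCH pathway 9 were higher (37.5%) and 5 lower (20.8%), against 35% and 12.1% of all genes. Their median was 0.27, 0.056 above that of all genes, but 6 were higher and 9 lower after centring. The ligand JAG2 was higher (1.42), and NOTCH3, a receptor, was lower (-1.52), with 14.3 and 12.6 against 28.2 and 57.2. DTX1, a NOTCH target, was lower (-0.93).

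Of 44 genes of T cell receptor (TCR) signaling 17 were higher and 5 lower (median 0.29, 0.079 above that of all genes), and 7 were higher and 11 lower after centring, so the direction of this list depends on the scaling. PTPRC, the phosphatase CD45, had 161 and 167 in knockout and 76.3 and 66.9 in knockdown libraries (difference 1.19, SE 0.0916, adjusted p = 0.00211). LCP2, the adaptor SLP-76, had 76.7 and 76.8 against 42.3 and 38.9 (difference 0.90, SE 0.0773, adjusted p = 0.00255). PAG1, the adaptor that recruits CSK, was lower (-1.29). Of 41 adhesion and migration genes 6 were higher and 9 lower (median 0.05, 0.16 below that of all genes), and 4 and 12 after centring. ITGA4, the alpha 4 integrin, was higher with 155 and 142 against 67.2 and 72.3 (difference 1.08, SE 0.0859, adjusted p = 0.00224), while S1PR1, the receptor of lymphocyte egress, was lower (-1.83). Of 32 cytokine receptor genes 12 were higher and 5 lower (median 0.26, 0.047 above that of all genes), and 7 were higher and 11 lower after centring. IL4R, IL17RA and TGFBR2 were higher (0.79, 1.13 and 0.87) and IL7R and TNFRSF4 lower.

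The pathways on which CBAP was studied had medians under that of all genes. Of 42 genes of the PI3K, AKT, TSC and mTOR pathway 10 were higher and 6 lower (median 0.05, 0.16 below that of all genes), and 6 were higher and 17 lower after centring. TSC2, the mTOR inhibitor that AKT phosphorylates, had 21.2 and 20.7 in knockout and 10.5 and 13.2 in knockdown libraries (difference 0.78, SE 0.126, adjusted p = 0.010). PHLPP1, a phosphatase of AKT, was lower (-1.33). Of 31 genes of the RAS, RAF and ERK pathway 8 were higher and 5 lower (median 0.11, also 0.11 below), and 7 were higher and 12 lower after centring. SOS1, an activator of RAS, was higher (1.46), as was RASAL3, an inhibitor of RAS (1.58), and EGR1, an ERK target gene (1.42), while SPRY1, a feedback inhibitor, was lower (-1.77). Of 21 hypoxia and HIF1A genes 7 were higher and 5 lower (median 0.20, 0.014 below), but 4 were higher and 8 lower after centring. MYC, a driver of T-ALL growth, had 130 and 132 in knockout and 125 and 137 in knockdown libraries, a difference of 0.0014 (SE 0.0798, adjusted p = 0.989). The MYC values overlapped between the lines and the sign changed with the scaling, with MYC called lower after centring (-0.24). HIF1A, the oxygen-regulated factor, had 34.5 and 36.9 against 39.2 and 51.0 (difference -0.32, SE 0.141, adjusted p = 0.123), and it was called lower without knockdown replicate 1 (-0.50), after centring (-0.56), after quantile normalization (-0.45) and with all 8 libraries in the model (-0.32).

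Of 34 aminoacyl-tRNA synthetase genes 6 were higher and 5 lower (median 0.09, 0.12 below that of all genes), and 2 were higher and 15 lower after centring. Of 32 interferon-stimulated genes 6 were higher and 9 lower (median -0.05, 0.26 below), and 5 and 14 after centring, among them BST2, the tether of virus particles (-1.59), and IFI44 (1.501). Of 16 genes of HLA class I and peptide loading 5 were higher and 2 lower (median 0.26, 0.043 above), and 2 and 2 after centring. B2M, the light chain of class I molecules, had 1354 and 1428 against 784 and 803 (difference 0.81, SE 0.0854, adjusted p = 0.00395). Of 15 genes of the RNA interference machinery, on which an shRNA depends, 4 were higher and 3 lower (median -0.022, 0.24 below), and 2 and 6 after centring. Of 39 HOX genes only 6 were tested, of which 4 were higher and 1 was lower, also after centring (median 0.70, 0.49 above). HOXC10 had 11.6 and 11.4 against 4.45 and 5.06 and was listed at 0 in the reconstituted and sh-Ctrl libraries.

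The T cell identity of the libraries was checked on markers. All of the 12 T cell markers were tested, with 7 higher and 1 lower in knockout, or 4 and 2 after centring, and their summed FPKM was 2310 and 2761 in knockout and 1900 and 2068 in knockdown libraries. CD3E, a TCR subunit, had 530 and 1022 in the knockout libraries and 416 and 511 in the knockdown libraries and was not called (adjusted p = 0.1504). CD7 was lower (-0.57, SE 0.0964, adjusted p = 0.0112), with 134 and 124 against 204 and 180. CD2 was higher (0.87), and for CD2 and CD7 the reconstituted libraries were the lowest of the 4 lines. The median of the 12 markers was 0.45 between knockout and knockdown and -0.41 between reconstituted and sh-Ctrl. The reconstituted libraries had 0.180 and 0.231 of CD5, against 20.5 and 21.7 in sh-Ctrl, and 2.93 and 2.59 of CD28, against 24.1 and 29.2, and thus stood apart in both markers. Of markers of other cells, 1 of 6 for B cells, 2 of 6 for NK cells, 2 of 6 for erythroid cells, 3 of 8 for stroma and epithelium and 0 of 7 for myeloid cells were analysed here. CD79A, of B cells, had 9.60 and 9.91 in knockout and 13.0 and 15.9 in knockdown libraries. NKG7, of NK cells, had 13.6 and 12.8 in knockout and 19.8 and 8.29 in knockdown libraries and was not called. Its values in the reconstituted libraries were 0.539 and 0.296. The summed erythroid markers were 0.278 and 0.103 in knockout against 0 and 1.32 in knockdown libraries. COL1A1, of stroma, was between 1.07 and 1.44 in the 4 libraries.

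Genes listed at 0 in a whole line stood outside the test. Both knockout libraries were at 0 and both knockdown libraries above 0 for 132 genes, with a median FPKM of 9.85 in knockdown, and 65 of them had at least 10. Of the 132, 60 were also at 0 in both reconstituted libraries and 66 were above 0 in both. Among the highest were MRPL20 (169 and 171), SNORA70, MTA1, a chromatin repressor subunit (64.7 and 78.5), MRPL38 and NAPRT1. All of these were above 0 in both reconstituted libraries, where MRPL20 had 235 and 227 and MTA1 had 78.8 and 80.5. Since a listed 0 can be a failed estimate, no fold is given. The converse held for 31 genes, of which 23 were at 0 in both sh-Ctrl libraries too. KRT1, a keratin of skin, had 55.7 and 51.0 in knockout and 12.02 and 11.3 in reconstituted libraries and was listed at 0 in all shRNA libraries. COL17A1, a collagen of hemidesmosomes, had 17.8 and 23.8 in knockout and 0.0705 and 0.0491 in reconstituted libraries. UQCRQ, a subunit of complex III that overlaps another gene, had 34.1 and 33.3 in knockout and 50.7 and 52.1 in reconstituted libraries. It was at 0 in every shRNA library.

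Called genes lay on all chromosomes from 1 to 22 and on X. The median difference of the tested genes of a chromosome ran from 0.087 (chromosome 11, 573 genes) to 0.34 (chromosome 21, 107 genes), and on chromosome 11 the median between reconstituted and sh-Ctrl was 0.18. Over 9213 windows of 25 neighbouring genes the median ran from -0.16 to 0.57. The windows with the lowest medians lay on chromosome 11.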

How the data were processed

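RNA of 8 Jurkat-derived libraries was sequenced, 2 per line, and the 4 knockout and knockdown libraries were compared. The authors aligned reads to hg19 with TopHat and estimated FPKM with Cuffdiff, and the deposited table holds 1 FPKM value per gene and library and no counts, so depth is unknown. The submitters' processing notes also name CASAVA 1.8, Bowtie and Cufflinks. Lines were taken from the labels. The members and lists were chosen with earlier results of these data known.

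From the deposited FPKM, log2(FPKM + 1) was fitted with limma 3.58.1 (R 4.3.3, a mean per line, empirical Bayes with trend) and adjusted by Benjamini-Hochberg, at 0.05. Genes needed a mean FPKM of at least 1 and no listed 0. The difference of the differences was fitted on all 8 libraries. Each fit was tested on simulated data. Named are the 12 genes furthest in each direction among called genes without overlap (small RNAs and entries named for several genes left out), 3 called members per list and direction, 5 per direction of the difference of the differences, 6 zeros per direction, TMEM102, MYC, HIF1A and BCL2. The genes of unshared sequence and further members of the lipid, ATF4, ribosomal and cell cycle lists were named after their values were seen. Positions and transcripts came from GENCODE release 44 lifted to hg19 (11469 names matched directly and 986 by synonym), and promoters from RefSeq (GRCh38.p14). Tables were made with Python 3.11.15, pandas 2.3.3 and numpy 2.4.6. Alternatives covered the pseudocount (0.1 and 0.5), filters, listed zeros, scaling, trend, all 8 libraries, a replicate block and single libraries left out. Leaving out genes of shared sequence and genes with a 0 in any of the 8 libraries was added after seeing the data, as was centring of the other 2 comparisons. A few genes fixed by these rules are not reported here. The protein and growth experiments were not analysed here.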

Additional observations from a re-analysis of the deposited data

Results flagged for a closer look

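The difference of the differences, (knockout minus knockdown) minus (reconstituted minus sh-Ctrl), is listed here because it tests directly whether the CRISPR and shRNA lines differ by another amount when CBAP is meant to be removed. By limma over all 8 libraries it was positive for 2264 genes and negative for 1739 of 10498 at an adjusted p under 0.05.

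The highest values were 5.62 for CST7, 5.05 for RAB44, 4.87 for MFAP4, a protein of elastic fibers, 4.63 for CD5, a restraint on TCR signals, and 4.37 for DENND1C, an activator of RAB GTPases. CD5 had 27.1 and 27.4 in knockout, 19.7 and 20.3 in knockdown, 0.180 and 0.231 in reconstituted and 20.5 and 21.7 in sh-Ctrl libraries, so the reconstituted line is the one that stands apart. DENND1C had 1.63 and 1.54 in reconstituted libraries and at least 16.2 in the others. The knockout minus knockdown call of CD5 was lost without knockout replicate 1 (0.44) or replicate 2 (0.42) and after centring (0.19). The lowest values were -4.13 for BOP1, a factor of ribosome assembly, -3.96 for NPW, a neuropeptide, -3.94 for DSE, a dermatan sulfate enzyme, -3.82 for NETO1, a receptor partner of neurons, and -3.79 for NDUFA4, a subunit of the respiratory chain. BOP1 had 3.52 and 3.59 in knockout and between 49.7 and 87.7 in the other 6 libraries, and 84.0% of its 50-base stretches also occur at another locus. NPW had 87.4 and 86.0 and NDUFA4 143 and 127 in reconstituted libraries, above all others.

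Among the genes named for their own knockout minus knockdown difference, the difference of the differences was 4.29 for CEBPE, 3.77 for GIMAP4, 3.63 for C1QTNF6, 3.45 for GAB2, 3.33 for PLEK, 3.15 for FGFR3, 2.92 for SMAP1, 2.39 for FAM219B, 1.08 for LOC338799 and 0.76 for BCL2. It was -2.58 for ANXA1, -0.96 for RPL21P28, -0.89 for H3F3A and -0.64 for HIF1A.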

How the results depend on the processing

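Of 10654 genes 5021 differed between knockout and knockdown, and the count lay between 2954 and 7018 when single libraries were left out (2996 and 2954 without a knockout library, 5936 and 7018 without a knockdown library), where the lone library is assumed to vary like the rest. It was 984 with a difference of at least 1 and 3008 of 6091 genes without shared or overlapping sequence. It stayed within 1.5 times under pseudocounts of 0.1 (4972) and 0.5 (5003), no filter on the mean (5318), a mean of at least 5 (3831), listed zeros kept (4283), centring (4834), quantile normalization (4715), no trend (4952), robust fitting (4991), all 8 libraries (6112) and only genes above 0 in all 8 (4959). Between reconstituted and sh-Ctrl the count of 5405 lay between 1504 and 7464 without single libraries, and for the difference of the differences the count of 4003 lay between 2197 and 5227. MYC changed sign after quantile normalization (-0.022) and centring (-0.24) and without single libraries (-0.065 to 0.068). Over the other alternatives of the named genes, 2064 values kept side and direction, 68 lost the call and 14 gained it. Replicate numbers did not pair the libraries (r = 0.034 across genes between replicate 1 minus 2 of each line), and with a replicate block 5145 genes were called. Unknown depth and 2 libraries per line limit the precision, and the cause of the changes without a knockout library was not tested.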
